A study of Mus musculus with 46 samples.

Results

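The miRNAs of intact mouse brain were compared with those of intact mouse heart. Members were the arrays whose RNA had an RNA integrity number (RIN) over 7, on a scale that runs up to fully intact RNA, and 27 of the 46 arrays of the series were kept, 14 of brain and 13 of heart. Both groups came from male C57BL6 mice of an Il1a knock-out strain whose age the sources used here do not give, so that brain and heart shared the deletion. Each organ was cut into pieces, which were kept for 0 to 96 h at 4 °C or at room temperature (RT) before RNA isolation. No agent was given. The brain arrays were all 8 times at 4 °C and the 6 times from 0 to 24 h at RT, and the heart arrays were 7 times at 4 °C and the same 6 at RT. All arrays of a tissue and temperature lay on 1 slide and came from pieces of 1 organ, so slide, animal and temperature cannot be told apart, and p-values describe the spread between pieces more than that between animals. By the study's methods, the brain and heart pieces came from the same individual. The sources used here do not say which region of the organ a piece held, and the methods give a later hour for the pieces labelled 12 h.

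RIN values were 7.3 to 8.7 in brain and 8.1 to 9.0 in heart. Feature Extraction, the scanner's software, called between 491 and 593 of the 1881 miRNAs detected on a brain array, and between 374 and 490 on a heart array. The summed signal of detected miRNAs ranged from 249616 to 504440 units in brain and from 229565 to 409816 in heart. The heart array of 0 h at 4 °C, which had a RIN of 8.8 but 215 detected miRNAs, stood apart and was left out. With it, 332 miRNAs in place of 311 passed the test below.

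A miRNA is a short RNA that guides an Argonaute protein to messenger RNAs, mostly by pairing through its seed, bases 2 to 8 from the 5′ end. It is cut from a hairpin precursor, whose arms give a 5p and a 3p miRNA, and usually one arm is kept and the other largely lost. Brain and heart each have miRNAs that are hallmarks of their cells. In neurons these include miR-124 and miR-9, which hold down genes of other cell types and of progenitors, and in heart muscle miR-1, miR-133, miR-208 and miR-499, the last 2 of which lie inside genes of myosin heavy chains.

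Mature sequences were taken from RefSeq (GRCm38.p6), which held 529 of the 625 miRNAs tested. Seeds are in capitals. The first set shows miRNAs that were near or below detection in heart and bright in brain, each with a seed of its own.
miR-9-5p: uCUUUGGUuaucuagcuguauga
miR-137-3p: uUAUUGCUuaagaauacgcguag
miR-138-5p: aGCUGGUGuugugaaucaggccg
miR-153-3p: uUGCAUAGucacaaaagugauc
The second set shows the miRNAs of the myosin genes, which were higher in heart. The seeds of miR-208a-3p and miR-208b-3p are the same 7 letters.
miR-208a-3p: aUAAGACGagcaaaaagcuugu
miR-208b-3p: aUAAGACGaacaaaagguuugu
miR-499-5p: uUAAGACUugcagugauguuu
The third set shows the miR-181 family, 4 miRNAs of 1 seed that were all higher in brain.
miR-181a-5p: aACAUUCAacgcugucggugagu
miR-181b-5p: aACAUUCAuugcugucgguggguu
miR-181c-5p: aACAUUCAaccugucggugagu
miR-181d-5p: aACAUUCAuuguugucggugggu
The fourth set shows miRNAs that share a seed and yet differed in opposite directions between brain and heart. They are miR-384-5p with miR-30e-5p, miR-708-5p with miR-28a-5p, and miR-148b-3p with miR-148a-3p and miR-152-3p.
miR-384-5p: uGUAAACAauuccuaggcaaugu
miR-30e-5p: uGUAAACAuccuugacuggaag
miR-708-5p: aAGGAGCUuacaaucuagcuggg
miR-28a-5p: aAGGAGCUcacagucuauugag
miR-148b-3p: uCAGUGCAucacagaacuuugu
miR-148a-3p: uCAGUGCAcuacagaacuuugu
miR-152-3p: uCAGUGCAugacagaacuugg

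Brain and heart differed in about every second miRNA that could be tested, and more of these were higher in brain. Levels are the authors' values after variance stabilizing normalization (VSN) on a log2 scale, on which a difference of 1 is 2-fold for bright miRNAs. The 625 miRNAs detected on at least 5 of the 27 arrays were tested with limma, and a miRNA was called where its Benjamini-Hochberg adjusted p was below 0.05 and its difference at least 1. Of these, 311 (49.8%) were called, 223 (35.7%) higher in brain and 88 (14.1%) higher in heart. The split depended on the scaling of the arrays: it was 188 to 178 after scaling to the 75th percentile of all miRNAs, 174 to 197 after quantile normalization and 74 to 58 after normexp background correction. In none of these 3 did a called miRNA turn to a call in the opposite tissue, and 1 called miRNA, miR-203-3p, changed sign (under normexp). The difference of the median miRNA tested was 0.48, and over the 289 miRNAs detected on every array it was 0.17, against -0.50, -0.68 and -0.21 under those 3 settings.

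The tissue differences were often large. Among the calls higher in brain, 108 had a difference of at least 3 on the log2 scale, and 102 were of miRNAs detected on no heart array. Among those higher in heart, 28 had a difference of at least 3 and 24 were of miRNAs detected on no brain array. All brain arrays lay on one side of all heart arrays for 237 of the 625 miRNAs (37.9%). Flags of detection alone gave 72 miRNAs on every brain array and no heart array, and 9 on every heart array and no brain array. Of the 72, 35 belong to the imprinted Dlk1-Dio3 region and 14 to the neuron-linked list. Of the 9, 3 are muscle miRNAs and 2 blood miRNAs. These lists hold 114, 35, 18 and 14 of the 1881 miRNAs on the array.

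**Figure D1:**
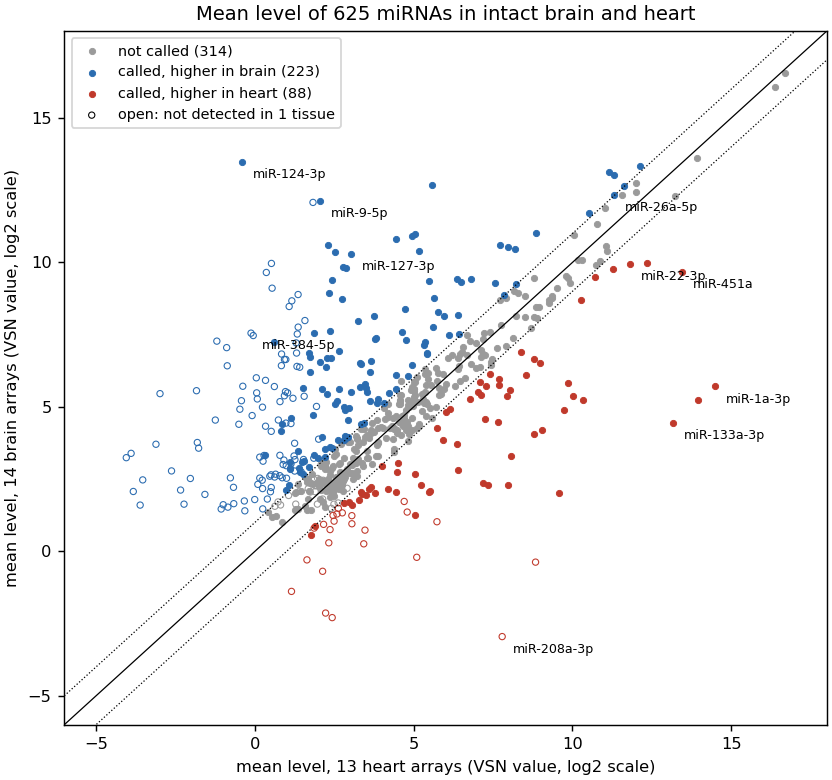
Mean level of each of the 625 miRNAs tested in the 13 heart arrays (x axis) and the 14 brain arrays (y axis), both as VSN values on a log2 scale. Each point is 1 miRNA, blue and red points are the 223 and 88 called miRNAs, and open points were detected on no array of 1 tissue. The dotted lines mark a difference of 1. Many miRNAs lie near the diagonal, but 311 of the 625 (49.8%) were called. The points of miR-124-3p and miR-208a-3p lie farthest from the diagonal on either side.

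Nearly all neuron-linked miRNAs tested were higher in brain, many by several log2 units. Of 35 on the array, 28 could be tested, 26 were higher in brain and 0 in heart, and their median difference was 6.17, or 5.12 with miRNAs absent from heart arrays set to their bound (for all miRNAs tested 0.48 and 0.40). Under normexp the median difference of the list was 1.57 (for all miRNAs tested -0.03). Of the 35, 19 were detected in brain arrays alone, and those tested passed the filter through brain alone. The shares called over all miRNAs tested, 35.7% higher in brain and 14.1% higher in heart, stand beside the counts of this and the following lists. In a piece of tissue, more cells of a type and more RNA per cell cannot be told apart. The marker of the brain label, miR-124-3p, is the most abundant miRNA of neurons and pushes cells towards a neuronal fate. On brain arrays miR-124-3p had a lowest level of 13.11, a median of 13.45 and a highest of 13.86, and on heart arrays these were -3.08, -0.11 and 2.54. It was detected on every brain array and on 1 of 13 heart arrays, and the groups were 13.87 apart (95% confidence interval (CI) 12.96 to 14.78, limma adjusted p = 1.3e-22). The heart values below detection vary around the background, so this difference is no fold change.

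Both arms of miR-9, which acts in neural progenitors and neurons, were bright in brain and close to background in heart. The level of miR-9-5p was between 11.80 and 12.88 in brain, with a median of 12.11, and between 1.39 and 2.38 in heart, with a median of 2.21. Levels of miR-9-3p ranged from 11.60 to 13.30 on brain arrays (median 12.04) and from 1.15 to 2.47 on heart arrays (median 1.98). No heart array reached the lowest brain array for either arm. The difference was 10.06 for miR-9-5p (95% CI 9.77 to 10.35, limma adjusted p = 6.52e-31), which 2 of 13 heart arrays detected. For miR-9-3p, which no heart array detected, brain was at least 1178-fold higher. Such bounds set the mean of the brighter tissue against the lowest detected miRNA of each array of the other, or against the miRNA's own value where that was higher.

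Further neuronal miRNAs were detected on all brain and no heart arrays, miR-137-3p, miR-138-5p and miR-153-3p, which are known for neuronal maturation, dendritic spines and the release of transmitter. The level of miR-137-3p was between 9.25 and 10.82 in brain, with a median of 9.96, and between -0.19 and 1.82 in heart, with a median of 0.41. The level of miR-138-5p was between 8.74 and 10.41 in brain, with a median of 9.64, and between -0.65 and 1.37 in heart, with a median of 0.34. Levels of miR-153-3p ranged from 8.47 to 9.64 on brain arrays (median 9.10) and from -2.01 to 1.78 on heart arrays (median 0.57). The groups stood far apart for each. Brain was at least 354-fold, 292-fold and 197-fold higher. These miRNAs passed the filter through brain arrays alone. The p-values are of the VSN differences, which use heart values below detection, and not of the bounds (limma adjusted p = 2.24e-27, 9.95e-27 and 8.27e-23). Of the list, miR-212-3p and miR-551b-5p were not called, with differences of 0.96 and 0.50, while the opposite arms of their hairpins were, miR-212-5p at 4.45 and miR-551b-3p at 7.51. The direction of miR-551b-5p flipped under the 75th percentile of all miRNAs, quantile normalization and normexp.

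The oligodendrocyte list holds miR-219 and miR-338, which are known to drive the precursors of these myelin-forming cells to mature. All 4 members tested, of 9 on the array, were higher in brain. Levels of miR-219a-5p ranged from 9.88 to 12.11 on brain arrays (median 10.89) and from 4.65 to 5.28 on heart arrays (median 4.95). The level of miR-338-3p was between 9.41 and 12.36 in brain, with a median of 10.36, and between 4.63 and 5.73 in heart, with a median of 5.27. Both were detected on every array of both tissues and did not overlap. Brain was 61.9-fold higher in miR-219a-5p and 37.2-fold higher in miR-338-3p (limma adjusted p = 9.17e-22 and 1.48e-18). No heart array detected miR-219a-2-3p, for which brain was at least 56.7-fold higher.

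The Dlk1-Dio3 region on chromosome 12 holds a large group of miRNAs that are expressed from the maternal chromosome alone and are known for their activity in brain and placenta. Of 114 members on the array, 60 were tested, 55 were higher in brain and 0 in heart, with a median difference of 4.87, or 4.00 at the bounds. Under normexp the median difference was 0.78, short of the difference of 1 that a call needs. In all, 44 members were detected in brain arrays and in no heart array. Those of the 44 that were tested passed the filter through brain arrays alone. Of all miRNAs tested, 35.7% were called higher in brain and 14.1% higher in heart. On brain arrays miR-127-3p had a lowest level of 9.69, a median of 10.37 and a highest of 10.74, and on heart arrays these were 2.47, 2.76 and 4.61. This miRNA, which is antisense to the retrotransposon-derived gene Rtl1, was detected on all 27 arrays and 155-fold higher in brain (limma adjusted p = 4.34e-24). Its heart levels were dim, so this fold is approximate. The level of miR-434-3p was between 9.81 and 11.32 in brain, with a median of 10.31, and between 2.04 and 3.35 in heart, with a median of 2.45. Brain exceeded heart for it by 7.82, and 5 of 13 heart arrays detected it.

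For miR-382-5p, miR-410-3p and miR-433-3p, which no heart array detected, brain was at least 117-fold, 153-fold and 16.1-fold higher, and for miR-127-5p at least 3.84-fold. Their brain levels ranged from 7.92 to 9.32, 8.33 to 9.54, 4.53 to 6.66 and 2.53 to 3.76. The other 5 were not called. Among them, miR-134-5p varied over more than 6 log2 units within each tissue, from 2.48 to 8.66 in brain and from 1.54 to 8.79 in heart, with a difference of -0.03 (limma adjusted p = 0.972). The others were miR-494-3p at -0.67, miR-3544-3p at -0.18, miR-3072-5p at 0.51 and miR-1906 at 0.91. At least 1 of these 5 changed sign under each of the 75th percentile of all miRNAs, quantile normalization, no scaling and normexp.

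Muscle miRNAs showed the opposite pattern. All 11 members tested, of 18 on the array, were higher in heart, with a median difference of -7.56, or -6.52 at the bounds. Under normexp the median difference was -2.90. Of the 18, 6 were detected in heart arrays alone, and those tested passed the filter through heart alone. Of all miRNAs tested, 14.1% were called higher in heart. The marker of the heart label, miR-1a-3p, is the leading miRNA of heart and skeletal muscle and restrains proliferation. The level of miR-1a-3p was between 5.02 and 7.84 in brain, with a median of 5.60, and between 14.13 and 14.93 in heart, with a median of 14.46. All arrays of both tissues detected it, and heart was 440-fold higher (difference -8.78, 95% CI -9.24 to -8.32, limma adjusted p = 4.86e-25). It is encoded beside miR-133a, and miR-133 also restrains growth of heart muscle cells. The level of miR-133a-3p was between 3.45 and 5.63 in brain, with a median of 4.34, and between 12.85 and 13.56 in heart, with a median of 13.09. Levels of miR-133b-3p ranged from 4.55 to 6.52 on brain arrays (median 5.11) and from 13.61 to 14.36 on heart arrays (median 13.88). Heart was 422-fold and 423-fold higher, and no brain array came near a heart array. The sequences of miR-133a and miR-133b are near-identical, so a probe of one may also have bound the other.

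The miRNAs of the myosin genes were found in heart. In GRCm38.p6, miR-208a-3p lies at chr14:54949072-54949093 on the minus strand, within the span of Myh6 (chr14:54941921-54968017), the myosin heavy chain of the adult mouse ventricle. The level of miR-208a-3p was between -4.01 and -0.68 in brain, with a median of -3.06, and between 7.32 and 8.21 in heart, with a median of 7.83. No brain array detected it, and heart was at least 91.7-fold higher. The p-value is of the VSN difference, which uses brain values below detection, and not of the bound (limma adjusted p = 7.16e-26). The twin of miR-208a-3p in seed, miR-208b-3p, lies at chr14:54975710-54975731 within the span of Myh7 (chr14:54970684-54994626), the slow and fetal form. Levels of miR-208b-3p ranged from -3.65 to -0.16 on brain arrays (median -2.60) and from -0.39 to 4.44 on heart arrays (median 2.81). Only 5 of 13 heart arrays detected miR-208b-3p, and no brain array did, so that heart was at least 2.25-fold higher. The sequences of miR-208a-3p and miR-208b-3p differ by few bases, so a probe of one may also have bound the other. At chr2:155622893-155622913, within Myh7b (chr2:155611243-155634307), lies miR-499-5p. Levels of miR-499-5p ranged from 1.53 to 2.58 on brain arrays (median 2.02) and from 7.22 to 10.23 on heart arrays (median 9.89). Heart was higher by 7.56 for this miRNA (limma adjusted p = 8.27e-23), which 1 of 14 brain arrays detected. The table of genes gives no exons, so introns and exons were not told apart.

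The miR-378 family is known for its part in energy metabolism. All 5 members were higher in heart, from 25-fold for miR-378a-3p, detected on every array, to a difference of -5.66 for miR-378c. Only 12 of 14 brain arrays detected miR-378c and 4 of 14 miR-378a-5p, so for both the difference is no fold change. The median difference of the family was -5.05, and -3.67 under normexp. On brain arrays miR-378a-3p had a lowest level of 5.04, a median of 5.37 and a highest of 5.70, and on heart arrays these were 9.60, 9.96 and 10.55. The level of miR-378c was between 1.73 and 2.79 in brain, with a median of 2.18, and between 7.13 and 8.31 in heart, with a median of 7.98. The tissues did not overlap for any member. Members of this family differ by few bases, so their signals may not be independent of each other.

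Vessel, connective tissue and blood miRNAs were also higher in heart. Of the stroma list all 9 members tested, of 14 on the array, were called, with a median difference of -3.17. The level of miR-199a-3p was between 3.20 and 5.38 in brain, with a median of 4.01, and between 8.28 and 9.41 in heart, with a median of 8.73. Heart was 26.6-fold higher in miR-199a-3p, which is known in fibroblasts, and 5.17-fold higher in miR-126a-3p, the miRNA of endothelial cells. On brain arrays miR-126a-3p had a lowest level of 9.44, a median of 9.90 and a highest of 10.97, and on heart arrays these were 11.87, 12.35 and 12.73. On brain arrays miR-145a-5p had a lowest level of 3.31, a median of 4.62 and a highest of 5.27, and on heart arrays these were 6.53, 7.29 and 7.69. The smooth muscle miRNA miR-145a-5p was 6.35-fold higher in heart. For miR-143-5p, from the same transcript, the bound was at least 4.47-fold.

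Of the blood list, 9 of 10 members tested, of 14 on the array, were higher in heart, and 0 in brain. On brain arrays miR-451a had a lowest level of 8.96, a median of 9.53 and a highest of 11.17, and on heart arrays these were 12.14, 13.30 and 14.98. This miRNA of red blood cells was 13.8-fold higher in heart (limma adjusted p = 1.14e-12), yet it was bright on every brain array as well. On brain arrays miR-223-3p had a lowest level of 3.90, a median of 4.43 and a highest of 5.21, and on heart arrays these were 6.998, 7.50 and 8.68. The myeloid miR-223-3p was 8.98-fold higher in heart. The exception was the lymphocyte miRNA miR-150-5p, whose levels of 6.51 to 7.19 in brain and 6.21 to 7.08 in heart overlapped (difference 0.14, 95% CI -0.08 to 0.37), a sign that flipped under the 75th percentile of all miRNAs, quantile normalization and normexp. The mean level over the 10 members ran from 7.06 to 8.72 on heart arrays and from 3.90 to 5.44 on brain arrays, and that of the 9 stroma members from 7.22 to 8.07 and from 3.80 to 4.63. No defining member, miR-451a, miR-223-3p, miR-126a-3p or miR-199a-3p, was undetected on any of the 27 arrays. The part of blood and stroma in the other differences was not tested.

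Hepatocytes make miR-122-5p, which made up a further difference. On brain arrays miR-122-5p had a lowest level of 1.80, a median of 2.26 and a highest of 4.86, and on heart arrays these were 5.06, 6.67 and 7.38. The difference was -3.59 (limma adjusted p = 9.92e-11). Only 13 of 14 brain arrays detected miR-122-5p, so this difference is no fold change. The mean of the 6 liver arrays with RIN over 7 was 14.52. The other hepatic miRNAs tested, miR-192-5p and miR-194-5p, differed by -0.70 and -0.19 and were not called.

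**Figure D2:**
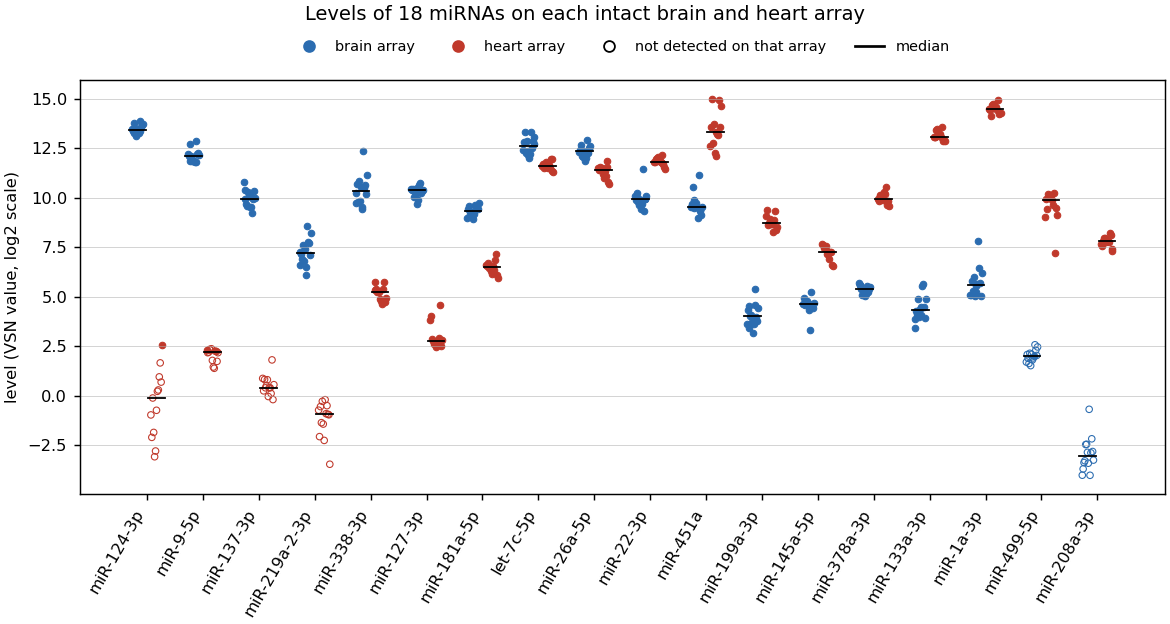
Level of 18 miRNAs (VSN value, log2 scale) on each of the 14 brain arrays (blue) and 13 heart arrays (red), with black bars at the medians and open points where the array did not detect the miRNA. Neuronal miRNAs on the left and muscle miRNAs on the right separate the tissues by many log2 units, and the broadly expressed let-7c-5p and miR-26a-5p differ by about 1; levels of different miRNAs are not comparable with each other.

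Among families that most tissues express, differences were smaller and families differed in direction. Of all miRNAs tested, 35.7% were called higher in brain and 14.1% higher in heart, and 37.9% did not overlap. All 4 members of miR-181 were higher in brain, by 3.15-fold for miR-181d-5p to 7.82-fold for miR-181b-5p. Their sequences differ by few bases, so their signals may not be independent of each other. On brain arrays miR-181a-5p had a lowest level of 8.92, a median of 9.36 and a highest of 9.73, and on heart arrays these were 5.95, 6.51 and 7.16. The tissues did not overlap for any member. In the miR-99 and miR-125 group 3 of 5 were higher in brain, miR-125a-5p by 6.1-fold, miR-125b-5p by 3.32-fold and miR-99b-5p by 2.72-fold, whereas miR-100-5p and miR-99a-5p were not called at 0.85 and -0.26. Of miR-29, which targets collagens, miR-29b-3p and miR-29a-3p were 4.01-fold and 2.33-fold higher in brain and miR-29c-3p was not called at 0.77.

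The let-7 miRNAs, which mark differentiated cells, had 4 of 9 members higher in brain and 0 in heart, a share near the 35.7% of all miRNAs tested. On brain arrays let-7e-5p had a lowest level of 10.11, a median of 10.57 and a highest of 11.52, and on heart arrays these were 7.20, 7.67 and 8.62. Brain was 7.49-fold higher for it, against 2.28-fold for let-7g-5p, 2.142-fold for miR-98-5p and 2.01-fold for let-7c-5p. The gene of let-7e lies in 1 cluster with miR-99b and miR-125a on chromosome 17, and all 3 were called higher in brain. Under the 75th percentile of all miRNAs 2 of the 9 members changed sign, and 1 did under quantile normalization. For miR-26, brain was 2.04-fold higher in miR-26a-5p, and miR-26b-5p was at -0.64 and not called; the median of both turned from 0.20 to below 0 under the 75th percentile of all miRNAs, quantile normalization and normexp.

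Some families leaned to heart, where 14.1% of all miRNAs tested were called higher. Of the miR-17-92 clusters, which promote proliferation, 8 of 11 members were higher in heart and 0 in brain, miR-19a-3p by 4.13-fold, miR-25-3p by 3.25-fold and miR-92a-3p by 2.81-fold. The level of miR-19a-3p was between 3.19 and 4.94 in brain, with a median of 3.85, and between 5.402 and 6.86 in heart, with a median of 5.75. For miR-15 and miR-16, 2 of 6 were called, miR-322-5p 5.91-fold and miR-15b-5p 4.34-fold higher in heart, while miR-16-5p was at -0.24 (95% CI -0.58 to 0.10). In the miR-23, miR-27 and miR-24 clusters the copies on chromosome 8 were called, miR-27a-3p at 2.97-fold and miR-23a-3p at 2.8-fold, and their counterparts miR-27b-3p and miR-23b-3p were not, at -0.50 and -0.09; the sign of miR-23b-3p flipped without scaling. Of the miR-30 family, miR-30e-5p was 2.28-fold higher in heart, and the 4 others lay between -0.81 and -0.48.

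**Figure D3:**
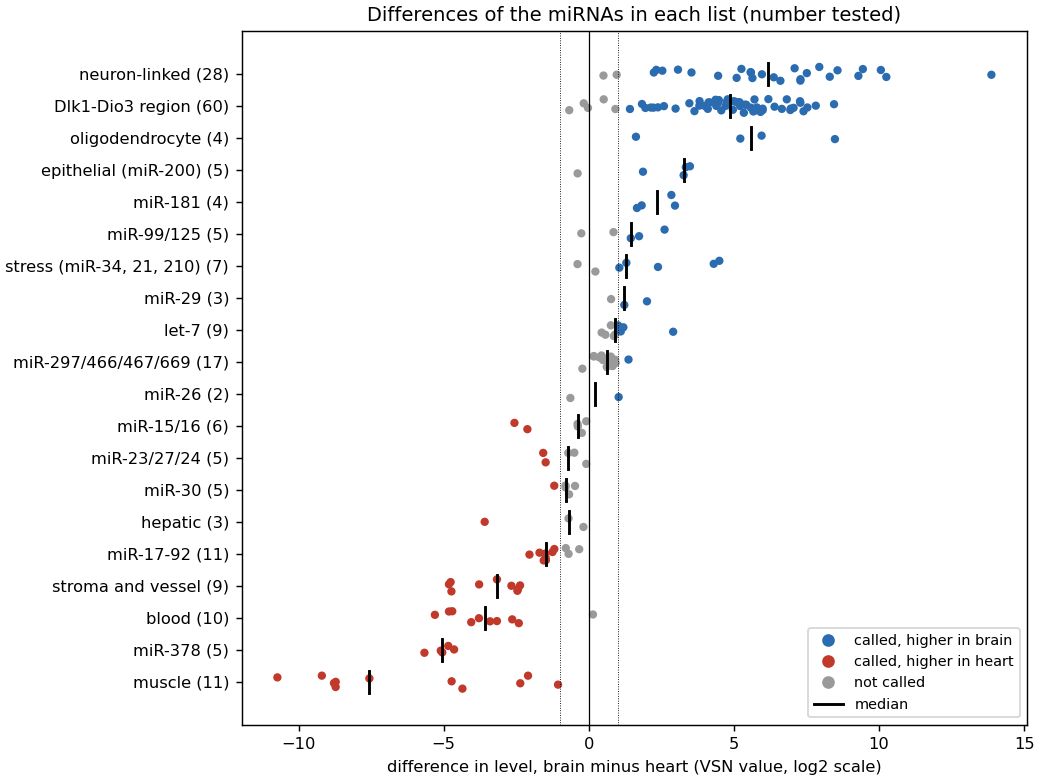
Difference between brain and heart (brain minus heart, VSN value on the log2 scale) for every tested miRNA of each list, with the number tested in brackets, black bars at the medians and dotted lines at 1 and -1. Blue and red points are called higher in brain and in heart, and grey points are not called; neuron-linked and Dlk1-Dio3 miRNAs lie far to the right and muscle and miR-378 miRNAs far to the left.

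Outside the lists, the 10 largest differences in favour of brain among miRNAs called and detected on every brain array were those of miR-384-5p, miR-344b-3p, miR-330-3p, miR-598-3p, miR-592-5p, miR-873a-5p, miR-135b-5p, miR-3475-3p, miR-344d-3p and miR-326-3p. All but miR-326-3p, which 7 heart arrays detected, were detected on no heart array, so their order rests on heart values below detection and is no order of fold changes. Among those 9 the bounds ran from 2.52-fold for miR-3475-3p to 80.2-fold for miR-598-3p. The level of miR-384-5p was between 7.02 and 8.07 in brain, with a median of 7.58, and between -1.46 and 0.69 in heart, with a median of 0.01. Brain was at least 68.7-fold higher in it and at least 64.9-fold in miR-344b-3p. The coordinates of miR-592-5p lie within the span of Grm8, a glutamate receptor gene, and brain was at least 19.2-fold higher.

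In favour of heart, with detection on every heart array, they were those of miR-10a-5p, miR-10b-5p, miR-6975-5p, miR-155-5p, miR-511-3p, miR-450a-5p, miR-30b-3p, miR-148a-3p, miR-22-3p and miR-28a-5p. The miR-10 miRNAs lie among the Hox genes, which set the body axis and are silent in the forebrain. On brain arrays miR-10a-5p had a lowest level of 1.36, a median of 2.06 and a highest of 2.36, and on heart arrays these were 4.25, 5.42 and 6.55. The level of miR-10b-5p was between 0.79 and 2.20 in brain, with a median of 1.25, and between 3.90 and 5.79 in heart, with a median of 4.89. Only 3 of 14 brain arrays detected miR-10a-5p, and for miR-10b-5p, detected on none, heart was at least 10.09-fold higher. Within the span of Mrc1, a mannose receptor gene of macrophages, lies miR-511-3p, for which heart was at least 4.36-fold higher. The immune miRNA miR-155-5p was higher in heart by 2.95 on the log2 scale, and 3 of 14 brain arrays detected it. On brain arrays miR-22-3p had a lowest level of 9.36, a median of 9.92 and a highest of 11.46, and on heart arrays these were 11.47, 11.82 and 12.15. A miRNA known in heart muscle growth, miR-22-3p was 3.66-fold higher in heart.

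Of the miRNAs linked to stress, the miR-34 family, which responds to p53 and is also abundant in ciliated cells, was higher in brain, with 5 of 7 list members called. The share called higher in brain over all miRNAs tested was 35.7%. The level of miR-34b-5p was between 4.97 and 9.03 in brain, with a median of 7.01, and between 2.17 and 3.81 in heart, with a median of 2.49. Levels of miR-34c-5p ranged from 4.003 to 8.36 on brain arrays (median 6.34) and from 1.30 to 2.33 on heart arrays (median 1.70). Brain arrays of both differed by over 4 log2 units among themselves, and the lowest brain array was above the highest heart array. The fibrosis-linked miR-21a-5p and the hypoxia-induced miR-210-3p were not called, at -0.39 (95% CI -0.84 to 0.06) and 0.23 (95% CI -0.03 to 0.48), and the sign of miR-210-3p flipped under the 75th percentile of all miRNAs, quantile normalization and normexp.

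The epithelial miRNAs of the miR-200 and miR-183 families, which hold cells in an epithelial state or act in sensory cells, set single brain pieces apart. Of 16 on the array, 9 were detected in brain arrays alone. Of 5 tested, 4 were called higher in brain and 0 in heart, and the tissues overlapped for all 5. Over all miRNAs tested, 35.7% were called higher in brain. The highest level of miR-200a-3p was 11.83, in the brain piece of 3 h at 4 °C, followed by 8.34 in the piece of 24 h at 4 °C, against a median over brain of 4.16 and a range of 0.24 to 2.64 in heart. In the same 2 pieces miR-200b-3p stood at 10.72 and 7.50, miR-429-3p at 11.08 and 7.84, miR-141-3p at 9.64 and 6.22, and miR-96-5p at 10.53 and 6.71. On the other brain arrays the highest level of any of the 5 was 4.78. Of the miRNAs detected on all brain arrays, miR-200a-3p had the highest SD between them, 2.56, against a median SD of 0.41. Without the 2 pieces the differences of miR-200a-3p, miR-200b-3p and miR-429-3p were 2.60, 2.53 and 2.44 and stayed called (limma adjusted p = 4.77e-08, 2.58e-08 and 1.1e-08), miR-96-5p fell to 0.96 and was lost, and miR-141-3p went from -0.39 to -1.43 and was called higher in heart (limma adjusted p = 0.00558). The brain arrays of miR-141-3p were below detection at RT and, at 4 °C, at 0, 1, 12 and 96 h. That call thus rests on brain values mostly below detection. Only 2 of 13 heart arrays detected miR-200a-3p, so its difference is no fold change.

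The spread within heart had a median SD of 0.32. It was highest for miR-344i (SD 2.02), which also varied in brain (SD 1.98), and miR-218-5p, of the neuron-linked list, stood at 7.74 in the heart piece of 6 h at RT against a heart median of 4.79.

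The miRNAs of the name families miR-297, miR-466, miR-467 and miR-669, many of which lie in a cluster in the gene Sfmbt2 and others elsewhere, mostly missed the 2-fold rule. Of 61 on the array 17 were tested, and 1, miR-467b-5p, was called higher in brain and 0 in heart. The median difference was 0.63, which turned to -0.28 under quantile normalization and -0.05 under normexp. Late entries of the registry, taken as those numbered from 3000 up, were called in 48 of 197 cases (24.4%), against 263 of 428 (61.4%) with lower numbers. The median level difference was 0.13 in the first class and 0.80 in the second.

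The 5 smallest differences among the miRNAs detected on all 27 arrays were those of miR-6360, miR-211-3p, miR-705, miR-7088-5p and miR-1892. The level of miR-6360 was between 4.60 and 5.50 in brain, with a median of 5.24, and between 4.78 and 5.41 in heart, with a median of 5.24. The difference was 0.0033 (95% CI -0.22 to 0.22). Of these 5 miRNAs, miR-705 and miR-7088-5p were called higher in heart under quantile normalization, at -1.07 and -1.04, so that their near-equality depended on the scaling.

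Arms of 1 hairpin were compared in each tissue, since a shift of a whole array cancels in the 5p minus 3p difference. Both arms were detected on all 27 arrays for 20 hairpins, and 7 (35%) differed between the tissues. For miR-1839 the arm difference was 0.40 ± 0.31 in brain (SD, n = 14) and -2.64 ± 0.23 in heart (SD, n = 13), a gap of 3.04 (limma adjusted p = 1.97e-20). Its 5p arm differed by 3.24 between the tissues and its 3p arm by 0.20. The 5p arm was also relatively higher in brain for miR-125a (gap 2.28), miR-139 (2.04) and let-7d (1.07). It was relatively lower in brain for miR-328 (-1.54), miR-652 (-1.29) and miR-3102 (-1.03). By contrast, the gap was -0.07 for miR-126a (95% CI -0.22 to 0.07), although both of its arms were more than 5-fold higher in heart. Among the called hairpins, the arrays of the tissues overlapped for miR-328, at -3.63 to 0.97 in brain and -1.07 to 1.80 in heart. They also overlapped for miR-652 (-1.50 to 1.84 and 0.13 to 2.80) and miR-125a (2.86 to 5.83 and 0.92 to 3.55).

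**Figure D4:**
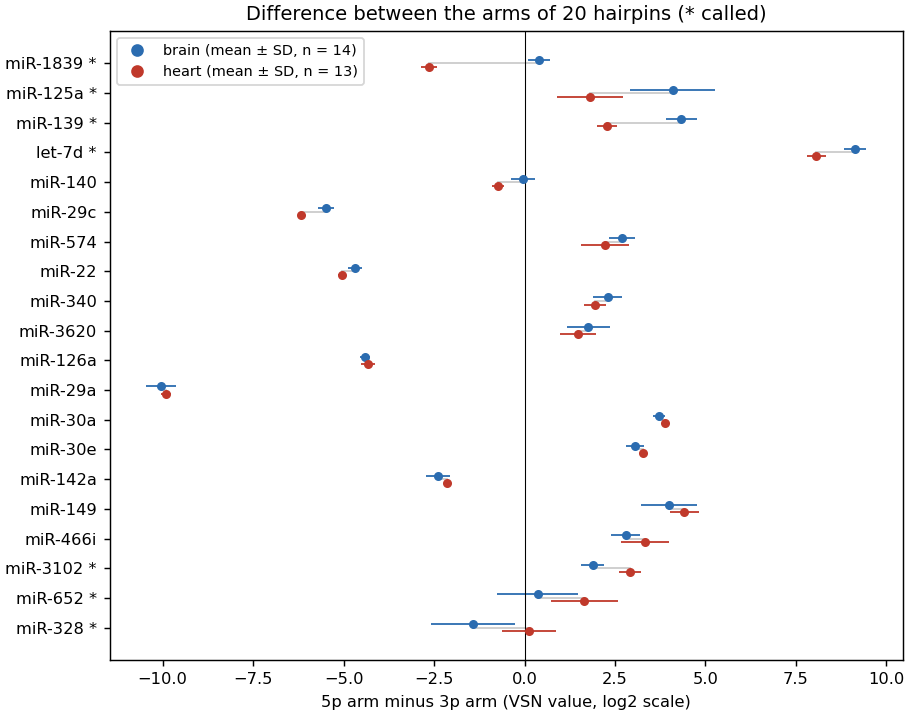
Level of the 5p arm minus that of the 3p arm (VSN values, log2 scale) for 20 hairpins with both arms detected on all 27 arrays, as mean and SD over 14 brain (blue) and 13 heart arrays (red). Stars mark the 7 hairpins called different between the tissues; miR-1839 has the widest gap, and for miR-126a and miR-29a the tissues lie close together.

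Where miRNAs of hairpins encoded side by side were called, they went in the same direction. Hairpins on the same strand within 10 kb of the next were joined, and 21 such clusters held at least 2 called miRNAs from at least 2 hairpins. In all 21 the called members went in 1 direction, 14 of them higher in brain and 7 higher in heart. Members that were not called do not count here, such as miR-494-3p, at -0.67 in the cluster with 34 calls higher in brain. Of all calls, 71.7% were higher in brain. miRNAs with the same mature sequence at 2 places were counted in both, so some clusters agree through shared members. The called members of the miR-144 and miR-451a cluster (chr11:78073005-78073241) were all higher in heart, and so were those of the miR-199a and miR-214 cluster (chr1:162217814-162223477).

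Shared seeds were also looked at. Among the miRNAs with a RefSeq sequence, 26 seeds had at least 2 called members, and 23 of them went 1 way. Of the 23, 17 were higher in brain and 6 in heart. Most of the 26 seeds had only 2 called members, and of all calls 71.7% were higher in brain. Some seeds hold miRNAs that differ by few bases, such as the miR-181 family, so their signals may not be independent. The 3 exceptions, chosen after their values were seen, are those printed in the fourth set. The levels of miR-384-5p on brain arrays, with a median of 7.58, and on heart arrays, with one of 0.01, are given above in full. On brain arrays miR-30e-5p had a lowest level of 9.07, a median of 9.51 and a highest of 10.05, and on heart arrays these were 10.27, 10.68 and 11.06. miR-384-5p was thus higher in brain by 7.67 and miR-30e-5p in heart by 1.19. Levels of miR-148b-3p ranged from 5.02 to 6.88 on brain arrays (median 5.60) and from 3.94 to 5.03 on heart arrays (median 4.42). It was 2.3-fold higher in brain, whereas miR-148a-3p was 3.8-fold and miR-152-3p 3.22-fold higher in heart. Brain was higher by 1.22 in miR-708-5p, which 13 brain arrays and 1 heart array detected, and heart 3.28-fold higher in miR-28a-5p.

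The 6 liver arrays with RIN over 7, which no test used, show where another tissue lay. For 213 of the 223 miRNAs called higher in brain, the liver mean was nearer to that of heart, and for 136 of the 223 no liver array detected the miRNA. For 66 of the 88 called higher in heart it was nearer to that of brain, and 21 were detected on no liver array. The miRNAs were chosen for a high level in brain or heart, so this position follows in part from the choice. Of the 223, 102 were detected on no heart array, and of the 88, 24 on no brain array. Values below detection lie near each other in any tissue.

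The tissue differences were compared between storage temperatures. Storage ran to 96 h on the 4 °C arrays and to 24 h on the RT arrays, so storage time differed as well. Within 4 °C alone 309 miRNAs were called and within RT alone 330, of which 291 and 300 were among the 311. At both temperatures 287 of the 311 differed by at least 1 in the same direction, and 0 changed sign. The interaction of tissue and temperature passed in 10 of 625 miRNAs (1.6%). Leaving out 1 array in turn gave 5 to 16. The largest positive value was that of miR-582-5p, whose brain minus heart difference was 1.12 at 4 °C and 2.99 at RT (interaction 1.88 ± 0.30 SE, limma adjusted p = 0.000634). No heart array detected it.

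**Figure D5:**
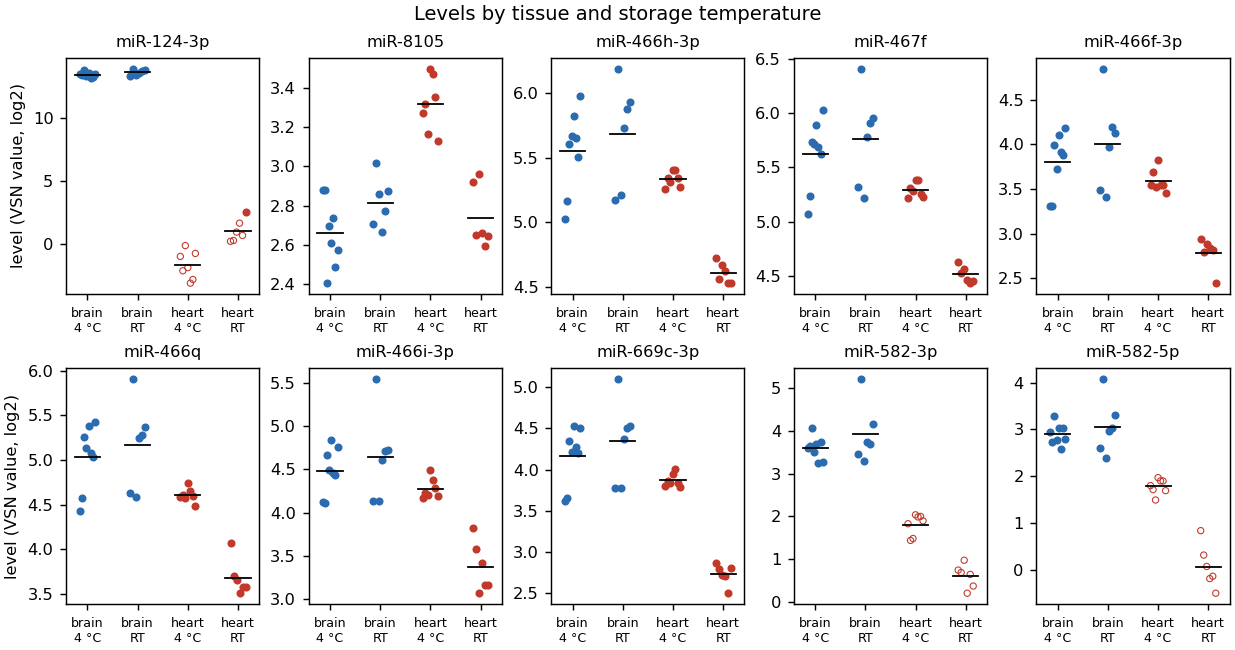
Levels (VSN value, log2 scale, with an axis of its own in each panel) of the 10 miRNAs whose tissue difference was not the same at both storage temperatures, for brain (blue) and heart (red) arrays, with bars at the means and open points where the array did not detect the miRNA. For 9 of the 10, all but miR-124-3p, the mean of the heart arrays was lower at RT than at 4 °C, and the brain means differed by at most 0.33. Each column is 1 slide and 1 organ, with storage to 96 h at 4 °C and to 24 h at RT.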

How the data were processed

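Total RNA of mouse brain and heart pieces was measured on 1-colour Agilent miRNA arrays with 30 spots for each of 1881 miRNAs. Per the file headers, the deposited intensities are Feature Extraction 10.10.1.1 signals with a detection flag for each miRNA, not scaled between arrays. The deposited log2 values were made by the authors with VSN over all 46 arrays and log transformation. Depth does not apply to arrays, and their number limits the precision.

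Arrays were grouped by the labels. The miRNAs detected on at least 5 of 27 arrays were tested with limma 3.58.1 (R 4.3.3, statmod 1.5.0), with slide as a random block (within-slide correlation 0.0218) and Benjamini-Hochberg adjustment over all 625. The interaction had no block. Fits were tested on simulated data. Summaries were made with pandas 2.3.3 (Python 3.11.15).

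The members, lists and rules were chosen with earlier results of these data known. Named were up to 6 members of a list with the largest differences among those detected on every array of a tissue, called members against their list's direction, the 10 largest differences in each direction outside the lists, up to 5 hairpins in each direction and the 5 smallest differences; others are named to account for a list or a count.

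Brain and heart pieces of 1 individual were paired in an alternative by temperature and hour. Other alternatives were other scalings, normexp (offset 50, on median spot signals), filters on detection, the methods' Wilcoxon-Mann-Whitney test, other blocks, subsets of arrays and no 2-fold rule. Fits without each array in turn, with the heart array of 0 h at 4 °C, and without the 2 brain pieces rich in miR-200a-3p were added after seeing the data.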

Additional observations from a re-analysis of the deposited data

Results flagged for a closer look

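For 10 miRNAs the tissue difference was not the same at both storage temperatures by the limma interaction test over 625 miRNAs. Values below are the brain minus heart difference at RT minus that at 4 °C on the log2 scale.

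The value was -2.54 for miR-124-3p, 1.54 for miR-582-3p and 1.88 for miR-582-5p. No heart array detected either arm of miR-582, and 1 of 13 detected miR-124-3p. The value was 0.74 for miR-8105 and 1.31 for miR-669c-3p. These 5 miRNAs passed in each of the 27 fits that left out 1 array.

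Members of the miR-466 and miR-467 families lost the call more often. The value was 1.00 for miR-466f-3p, 0.86 for miR-466h-3p, 1.07 for miR-466i-3p, 1.05 for miR-466q and 0.92 for miR-467f. They passed in 8 to 16 of the 27 fits, and the adjusted p rose to at most 0.0907, without the brain array of 12 h at RT. Sequences in these families and in miR-669 are near-identical, so the signals may not be independent. Each temperature was 1 slide and 1 organ in each tissue, so temperature, slide and animal cannot be told apart. Storage ran to 96 h at 4 °C and to 24 h at RT, so storage time differed as well.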

How the results depend on the processing

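Against 311 calls, 223 higher in brain and 88 in heart, normexp gave 132 (74 and 58), miRNAs detected on all 27 arrays 106 (66 and 40), no detection filter 558 (399 and 159), and no 2-fold rule 482 (321 and 161). Scaling to the 75th percentile of all miRNAs gave 366 (188 and 178) and quantile normalization 371 (174 and 197). The other settings gave 284 to 337 calls. Leaving out 1 array in turn gave 310 to 318, with 302 to 310 of the 311 calls kept. Paired by storage temperature and hour as a block over the 13 shared conditions, 316 were called, 309 of the 311 among them. A call in the opposite tissue occurred under no setting run. Under quantile normalization the differences of miR-705 and miR-7088-5p turned to -1.07 and -1.04. Over the other values of named miRNAs and hairpins, 2770 kept their side of the threshold, 58 fell below it and 48 rose past it, most often let-7c-5p (7 settings), miR-26a-5p (6), miR-34a-5p (5) and miR-98-5p (5), which lay near it. The 10 interaction calls became 7 after scaling to the 75th percentile of detected miRNAs, 13 without the brain array of 96 h at 4 °C, and 5 to 16 without 1 array in turn, being 5 or 6 without any 1 of the heart pieces of 3, 6, 12, 24 or 48 h at 4 °C or 1, 3 or 12 h at RT, or the brain pieces of 0, 1 or 48 h at 4 °C or 6, 12 or 24 h at RT, and 16 without that of 1 h at RT. The 7 arm differences were 6 within 4 °C, 5 within RT and 7 otherwise, and detection on every brain and no heart array rose from 72 to 73 miRNAs without the brain array of 96 h at 4 °C. Signals near background limit the dimmest miRNAs, for which the value is a bound. The causes of these changes were not tested.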
